A study of Mus musculus with 768 samples.

Results

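The genes described here are 10 transcription factors of the mural lineage, the pericytes and smooth muscle cells that wrap small vessels, and they were taken by symbol from the 24490 endogenous genes of the tables. They are the orphan nuclear receptors Nr2f1 and Nr2f2, the T-box factors Tbx2 and Tbx18, the forkhead factors Foxc1, Foxc2 and Foxf2, the early B-cell factors Ebf1 and Ebf2, and the MADS-box factor Mef2c. All 10 were in the tables and all 10 passed the filter of a mean RPKM of at least 1 (reads scaled to the length of the gene and the depth of the well). Cells came from 2 mammary tumors, each of a 14-week-old MMTV-PyMT mouse, a transgenic in which the MMTV promoter drives the polyoma middle T oncogene in mammary epithelium. Cells had been sorted as negative for EpCAM, CD45, CD31 and NG2 and sequenced by Smart-seq2, 1 cell per well and 384 wells per tumor. All wells share this genotype, age and sort, and there was no untreated or healthy group. The replicate is therefore the tumor (n = 2), and since the cells of a tumor lay on 1 plate, differences of tumor and plate cannot be told apart.

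Mural cells and fibroblasts share a mesenchymal origin in many organs, and transcription factors of these families help to set and keep their identity. Nr2f2 (COUP-TFII) acts in venous endothelium and in mesenchyme, and Tbx18 marks mural cells of many organs in lineage tracing. Foxc1, Foxc2 and Foxf2 are needed for normal vessel walls, with Foxc1 and Foxf2 best known from brain pericytes. Ebf1 and Ebf2 act in the B-cell and fat lineages, and Mef2c in heart, skeletal and smooth muscle.

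Of 768 wells, 727 had at least 10000 endogenous reads and were used, 373 of tumor 1 and 354 of tumor 2. A vascular cell was a well with log2(RPKM + 1) of Rgs5 of at least 5 and at least 3 above that of Dcn, and a matrix cell was the converse. This gave 260 vascular cells in tumor 1 and 239 in tumor 2, 84 matrix cells in each tumor, and 29 and 31 wells of neither class. Only 35 wells lay within 1 log2 unit of a cut. The 9 other vascular markers were all higher in the vascular cells and the 9 other matrix markers all higher in the matrix cells. The median depth was 202788 and 190515 reads in vascular cells of tumors 1 and 2, 278576 and 232394 in matrix cells, and 161616 and 162183 in the remaining wells. ERCC spike-ins took a median of 13.6% of the reads in vascular cells and 6.23% in matrix cells. The 10 endothelial markers summed to 382 and 484 CPM (counts scaled to the endogenous reads of the library) in vascular cells and 38.2 and 47.97 CPM in matrix cells. Their defining genes Pecam1 and Cdh5 had no read in the vascular cells of either tumor, and Emcn, at 114 and 201 CPM, and Flt1, at 260 and 276 CPM, made up most of the sum, while Tek of the same list stood at 0 and 1.03 CPM in vascular and at 30.5 and 19.1 CPM in matrix cells. The 6 lymphatic endothelial markers summed to 3.42 and 3.74 CPM in vascular and to 504 and 438 CPM in matrix cells, where Lyve1 and Ccl21a had no read. The rest of this list is Prox1, Flt4, Reln and Pdpn, and 0 matrix cells of either tumor had a read of 3 or more of the 6. Leaving out the wells with a read of Epcam, Pecam1 or Ptprc kept 6 of the 7 calls given below. Since Pecam1 had no read in vascular cells, this left out no vascular cell for an endothelial gene and does not bear on Emcn and Flt1.

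Start regions of some members are shown for reference, because several members moved together between the classes. RefSeq windows on GRCm38.p6, from 250 bases before to 50 bases after a start, were given for 7 of the 10 members in 11 windows, and not for Tbx2, Foxc2 and Ebf2. Both strands were searched for AGGTCA (the core motif of nuclear receptors), TAAACA (forkhead), GGTGTGA (T-box), TGGGAA (RBPJ) and CANNTG (E-box). Of 32851 windows of 300 bases, 16.3% held AGGTCA, 13.4% TAAACA, 3.98% GGTGTGA, 25.6% TGGGAA and 72.3% CANNTG, which can overlap the other motifs. The windows below run 5′ to 3′ on the strand of the gene, and capitals mark the first 4 motifs on either strand.
Nr2f2, chr7:70366697-70366996, minus strand, no match to the first 4 motifs: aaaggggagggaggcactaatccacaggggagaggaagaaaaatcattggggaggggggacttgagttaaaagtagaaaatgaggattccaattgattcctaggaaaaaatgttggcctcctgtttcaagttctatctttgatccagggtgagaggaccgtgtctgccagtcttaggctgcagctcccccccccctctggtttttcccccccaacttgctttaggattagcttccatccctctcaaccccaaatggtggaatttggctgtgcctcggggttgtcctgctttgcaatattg
Mef2c, chr13:83573357-83573656, plus strand, with 2 nuclear receptor matches: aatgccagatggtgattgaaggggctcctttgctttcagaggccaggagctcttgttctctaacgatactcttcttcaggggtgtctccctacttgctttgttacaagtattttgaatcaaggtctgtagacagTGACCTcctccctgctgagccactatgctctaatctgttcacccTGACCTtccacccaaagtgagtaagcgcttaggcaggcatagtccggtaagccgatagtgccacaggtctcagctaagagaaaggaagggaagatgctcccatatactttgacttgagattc
Ebf1, chr11:44619978-44620277, plus strand, with a T-box and an RBPJ match: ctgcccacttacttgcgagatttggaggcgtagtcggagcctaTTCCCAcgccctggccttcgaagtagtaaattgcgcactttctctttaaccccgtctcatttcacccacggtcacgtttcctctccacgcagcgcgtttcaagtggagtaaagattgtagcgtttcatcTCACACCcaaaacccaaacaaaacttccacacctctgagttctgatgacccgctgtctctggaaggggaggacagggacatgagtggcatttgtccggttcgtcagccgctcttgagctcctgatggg
Tbx18, chr9:87731211-87731510, minus strand, with an RBPJ match: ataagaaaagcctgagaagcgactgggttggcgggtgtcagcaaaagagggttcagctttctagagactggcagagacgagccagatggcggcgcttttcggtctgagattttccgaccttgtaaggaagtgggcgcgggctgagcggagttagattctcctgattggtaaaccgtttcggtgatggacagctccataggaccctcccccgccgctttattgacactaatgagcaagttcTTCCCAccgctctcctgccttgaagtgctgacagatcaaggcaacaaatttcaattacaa
Foxc1, chr13:31806396-31806695, plus strand, with an RBPJ match: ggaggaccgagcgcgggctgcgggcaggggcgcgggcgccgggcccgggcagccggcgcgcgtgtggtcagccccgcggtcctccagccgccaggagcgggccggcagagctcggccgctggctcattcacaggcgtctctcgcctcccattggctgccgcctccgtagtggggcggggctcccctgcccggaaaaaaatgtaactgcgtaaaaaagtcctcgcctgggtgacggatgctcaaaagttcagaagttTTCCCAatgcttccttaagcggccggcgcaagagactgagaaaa
The windows of Mef2c, Ebf1 and Nr2f2 belong to genes higher in vascular cells, and those of Tbx18 and Foxc1 to genes that were not. AGGTCA was found in 2 of the 3 Mef2c windows and in none of the other 8 windows. The other Ebf1 window held none of the 5 motifs, and the one TAAACA match among the 11 windows was in the second Nr2f1 window. These matches are a description of letters only.

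In vascular cells the order of the 10 levels was the same in both tumors. Nr2f2 led with a mean of 117 ± 7.01 RPKM (SD, n = 2 tumors), followed by Ebf1 with 51.8 ± 7.03, Mef2c with 45.7 ± 2.71 and Tbx2 with 38.3 ± 5.72 RPKM. Ebf2 stood at 27.9 ± 0.0684, Nr2f1 at 24.5 ± 2.76 and Tbx18 at 18.5 ± 1.08 RPKM. The 3 forkhead genes came last, with Foxc2 at 9.80 ± 1.06, Foxf2 at 5.03 ± 1.34 and Foxc1 at 2.95 ± 1.22 RPKM. Among neighbours in this order, only Ebf1 and Mef2c overlapped between the tumors. In matrix cells Tbx18 led with 21.3 ± 4.56 RPKM and Ebf1 followed with 16.4 ± 0.132 RPKM. Nr2f2, Nr2f1, Mef2c, Tbx2 and Ebf2 lay between 10.9 and 4.91 RPKM on average, and each overlapped with its neighbour between the tumors. Foxc1 averaged 3.86 ± 4.35 RPKM there, Foxf2 0.602 ± 0.787 and Foxc2 0.236 ± 0.0783 RPKM.

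**Figure D1:**
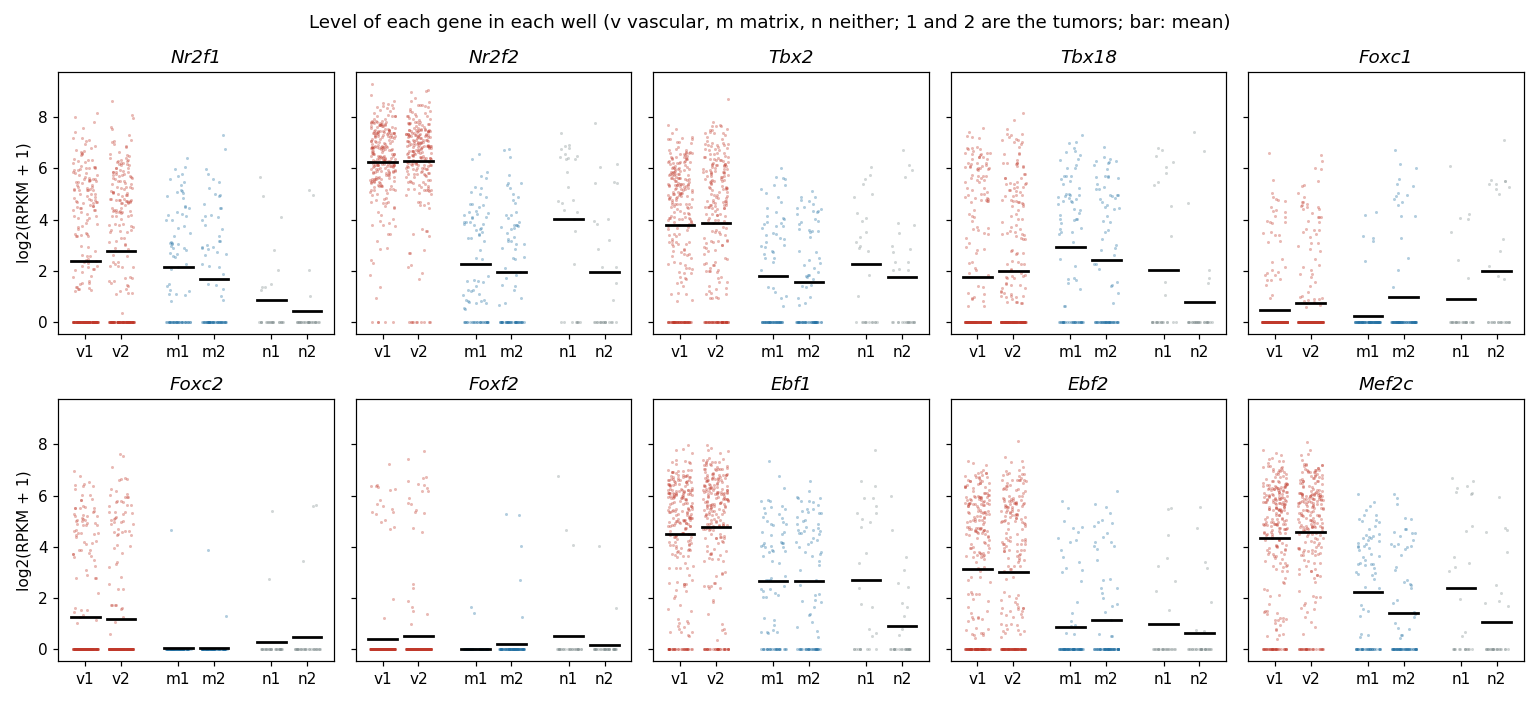
Level of each gene in every well, as log2(RPKM + 1), by class (v vascular, m matrix, n neither) and tumor (1 and 2), with a black bar at the mean of the wells. Nr2f2 fills nearly the whole vascular column above 0, while Foxf2 and Foxc2 are at 0 in most wells of every class.

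To ask which members differ between vascular and matrix cells, counts were summed per tumor and class and tested over 11592 genes with edgeR. Of the 10 members, 7 were higher in vascular cells at an adjusted p of 0.05, where 6.85% of all genes tested were, and 0 were higher in matrix cells, where 9.89% of all genes were. The 7 were Nr2f1, Nr2f2, Tbx2, Foxc2, Ebf1, Ebf2 and Mef2c. The median log2 fold change of the 10 members was 2.21, beside 0.03 over all genes tested. The members were chosen with earlier results of these data known, so the values for all genes are given for scale only. At an unadjusted p of 0.05, 1 member, Tbx18, was higher in matrix cells, and DESeq2 called 0 members in that direction. The fit scales libraries by TMM factors, which take 0.28 off a log2 ratio of plain CPM in each tumor. In these sums, fewer cells with a read and less RNA per cell cannot be told apart, so the shares of wells are given beside them.

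The nuclear receptor Nr2f2 (chr7:70351946-70366746) was read in nearly every vascular cell. It had a read in 98.1% and 95.8% of vascular cells of tumors 1 and 2, and in 71.4% and 54.8% of matrix cells. Per well, log2(RPKM + 1) of Nr2f2 ran from 0 through a median of 6.47 to 9.30 in vascular cells of tumor 1, and from 0 through 6.73 to 9.04 in tumor 2. In matrix cells the medians were 1.64 and 1.34 and the highest values 6.54 and 6.77, so the wells overlapped while the sums did not. The sums were 500 and 534 CPM in vascular cells and 46.9 and 38.9 CPM in matrix cells. The fit put Nr2f2 9.87-fold higher in vascular cells, a log2 fold change of 3.30 ± 0.19 (SE, adjusted p = 0.000458, edgeR), and it was called in 17 of 17 alternatives. The antisense neighbour B130024G19Rik overlaps Nr2f2 and shares sequence with it, and since strand is not known to have been used in counting, some reads could belong to either gene, with 7.59% of the 43-base windows of Nr2f2 transcripts also found in another gene. Its own level was 31.5 and 32.4 CPM in vascular and 1.86 and 4.34 CPM in matrix cells.

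Nr2f1 (chr13:78188971-78198873), the closest relative of Nr2f2, differed far less. It had a read in 52.3% and 59.8% of vascular cells and in 60.7% and 46.4% of matrix cells. The sums were 54.2 and 62.7 CPM in vascular cells against 26.7 and 24.01 CPM in matrix cells, higher in the vascular cells of both tumors. The fitted log2 fold change was 0.92 ± 0.23 (adjusted p = 0.0484, edgeR). This call was lost in 9 of 17 alternatives. Among them was the fit with the tumor as a block, at a log2 fold change of 0.92 (adjusted p = 0.0605, edgeR). Another was the fit without the wells with a read of Epcam, Pecam1 or Ptprc, at 0.82 (adjusted p = 0.0657, edgeR). Over the alternatives the log2 fold change of Nr2f1 ran from 0.23 to 1.06 and its adjusted p from 0.00458 to 0.490. A830082K12Rik overlaps Nr2f1 and stood at 38.2 and 46.5 CPM in vascular cells and 20.4 and 22.2 CPM in matrix cells, and 1.57% of the 43-base windows of Nr2f1 transcripts also occur in another gene in the GENCODE models.

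Of the T-box pair, Tbx2 passed the test and Tbx18 did not. Tbx2 (chr11:85832615-85841948), a repressor, had a read in 79.2% and 79.9% of vascular cells and in 51.2% of the matrix cells of each tumor. Its sums were 135 and 170 CPM in vascular cells and 29.2 and 25.3 CPM in matrix cells, with no overlap. The log2 fold change was 2.20 ± 0.21 (adjusted p = 0.00212, edgeR). Tbx18 (chr9:87702800-87731260), known as a mural marker, had a read in 36.9% and 48.95% of vascular cells and in 65.5% and 56.0% of matrix cells. Its sums were 96.2 and 99.3 CPM in vascular cells against 129 and 102 CPM in matrix cells. The log2 fold change was -0.52 ± 0.19, which did not pass (adjusted p = 0.140, edgeR). With limma on log2(RPKM + 1) Tbx18 was called higher in matrix cells (log2 difference -0.82, adjusted p = 0.0369), and also with ERCC totals as library size (-1.22, adjusted p = 0.0103). It stayed below 0 in all 17 alternatives, where its adjusted p ran from 0.0103 to 0.553. Of the 43-base windows of Tbx18 transcripts in the GENCODE models, 18.8% also occur in another gene, chiefly D030062O11Rik, against 0% for Tbx2. The level of Tbx18 may therefore be less certain. The RefSeq coordinates list 0 genes that overlap Tbx18, and an effect on its counts was not tested.

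The forkhead members were read in few wells. Foxc2 (chr8:121116171-121118895) had a read in 28.5% and 26.4% of vascular cells and in only 1.19% and 2.38% of matrix cells, that is in 1 and 2 wells. Its sums were 31.3 and 32.8 CPM in vascular cells and 1.47 and 0.605 CPM in matrix cells, the latter from 34 and 12 reads. The log2 fold change of 4.64 ± 0.55 was the largest of the members that passed (adjusted p = 0.00414, edgeR). Foxf2 (chr13:31625816-31631406) had a read in 7.69% and 10.5% of vascular cells, with sums of 12.8 and 15.5 CPM. In matrix cells it rested on 2 reads in tumor 1 and 45 in tumor 2, so the ratio was 148 in tumor 1 with a counting interval from 41.0 to 1229, and 6.85 in tumor 2 with an interval from 5.06 to 9.47. The fitted log2 fold change was 3.33 ± 1.26 and did not pass (adjusted p = 0.145, edgeR), while DESeq2 and both limma fits called it higher in vascular cells.

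Foxc1 (chr13:31806646-31810635) had sums in opposite order in the 2 tumors. It stood at 9.60 CPM in vascular and 3.85 CPM in matrix cells of tumor 1, but at 15.7 CPM in vascular and 28.6 CPM in matrix cells of tumor 2, where 193 of the 566 reads in matrix cells came from a single well. Its log2 fold change of -0.63 ± 0.88 did not pass (adjusted p = 0.700, edgeR). With tumor 1 alone the log2 ratio was 1.03, and with tumor 2 alone -1.15. Foxc1 had a read in 14.2% and 23.4% of vascular cells, in 7.14% and 21.4% of matrix cells and in 24.1% and 45.2% of wells of neither class.

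Both early B-cell factors were higher in vascular cells. The 7 adipocyte markers also summed to more there, to 399 and 393 CPM against 19.4 and 25.4 CPM in matrix cells, but Fabp4 alone made up 386 and 382 CPM of this (log2 fold change 9.07, adjusted p = 0.000158, edgeR). Cebpa stood at 12.9 and 11.3 CPM in vascular and 18.8 and 24.9 CPM in matrix cells (-1.14, adjusted p = 0.0740), and Adipoq and Cidec had no read in vascular cells of either tumor. Their part in the levels of Ebf1 and Ebf2 was not tested. Ebf1 (chr11:44618100-45008096) had a read in 88.1% and 87.0% of vascular cells and in 71.4% and 66.7% of matrix cells, and its sums were 279 and 326 CPM against 89.0 and 90.5 CPM. Its log2 fold change was 1.47 ± 0.16 (adjusted p = 0.00325, edgeR), a call lost with 6 libraries (adjusted p = 0.346). Ebf2 (chr14:67233292-67430952) had a read in 67.3% and 66.9% of vascular cells and in 27.4% and 34.5% of matrix cells. Its sums were 178 and 200 CPM in vascular cells against 23.1 and 33.1 CPM in matrix cells, although 1437 of its 9535 reads in vascular cells of tumor 2 came from a single well. The log2 fold change was 2.46 ± 0.23 (adjusted p = 0.00199, edgeR).

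Mef2c (chr13:83504017-83667079) had a read in 86.5% and 88.7% of vascular cells and in 60.7% and 44.0% of matrix cells. Its sums were 317 and 344 CPM in vascular cells and 68.0 and 47.2 CPM in matrix cells, with no overlap. The log2 fold change was 2.23 ± 0.23 (adjusted p = 0.00271, edgeR). When the wells of neither class entered the fit as 2 more libraries, the calls of Ebf1 (adjusted p = 0.346), Mef2c (0.0853) and Nr2f1 (0.168) were lost and 4 of the members stayed called. Their log2 fold changes, 1.47, 2.24 and 0.92, barely moved, while their standard errors grew to 0.73, 0.58 and 0.32.

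**Figure D2:**
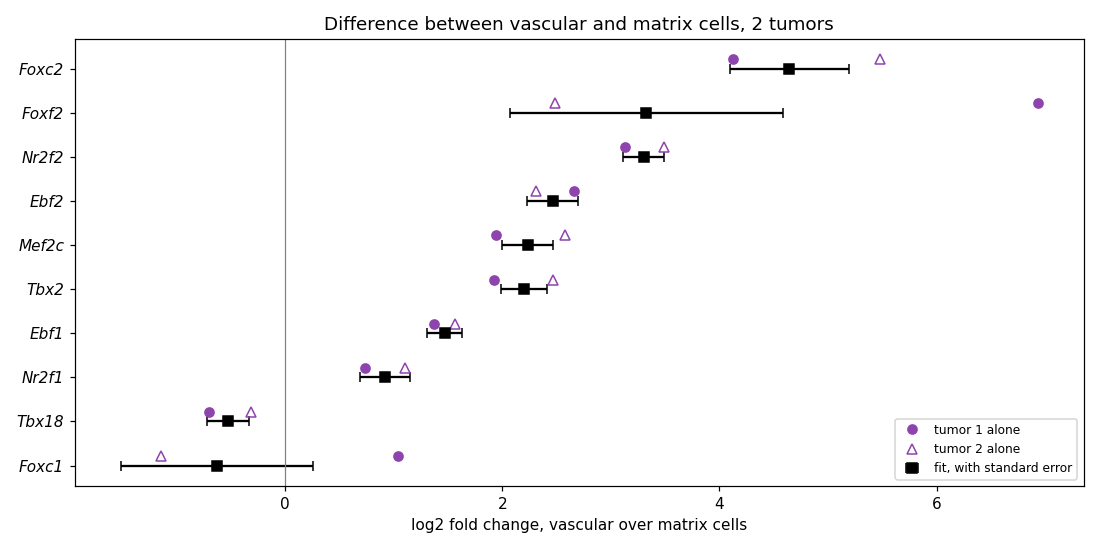
Log2 fold change of each gene, vascular over matrix cells, from the edgeR fit with its standard error (black squares) and from each tumor alone on the same TMM scale (purple circles for tumor 1, open triangles for tumor 2). The tumors lie on opposite sides of 0 for Foxc1 only, and far apart for Foxf2.

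Matrix cells were sequenced more deeply than vascular cells, so shares of wells were also taken after each well was thinned to 50000 reads, which left out 24 vascular and 8 matrix cells. Nr2f2 then had a read in 97.6% (exact 95% binomial interval 94.9 to 99.1) and 97.3% (94.3 to 99.0) of vascular cells and in 53.8% (42.2 to 65.0) and 37.5% (26.9 to 49.04) of matrix cells. Nr2f1, whose share in tumor 1 was lower in vascular than in matrix cells before thinning, had a read in 43.4% of vascular and 38.8% of matrix cells of tumor 1 after it, with overlapping intervals (37.2 to 49.8 and 28.1 to 50.3). In tumor 2 the shares were 52.2% (45.5 to 58.9) and 28.8% (19.2 to 40.0). Tbx18 was the only member with the higher share in matrix cells of both tumors, at 62.5% (51.0 to 73.1) and 50.0% (38.6 to 61.4) against 33.5% (27.7 to 39.7) and 41.1% (34.6 to 47.8) in vascular cells, and in tumor 2 these intervals overlapped. Intervals cover counting error over cells of 1 tumor only. Thinning sets equal endogenous reads per well and takes no account of the RNA per cell. ERCC reads took a median of 13.6% in vascular and 6.23% in matrix cells, and the medians of genes detected before thinning were 4112 and 5619.5.

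**Figure D3:**
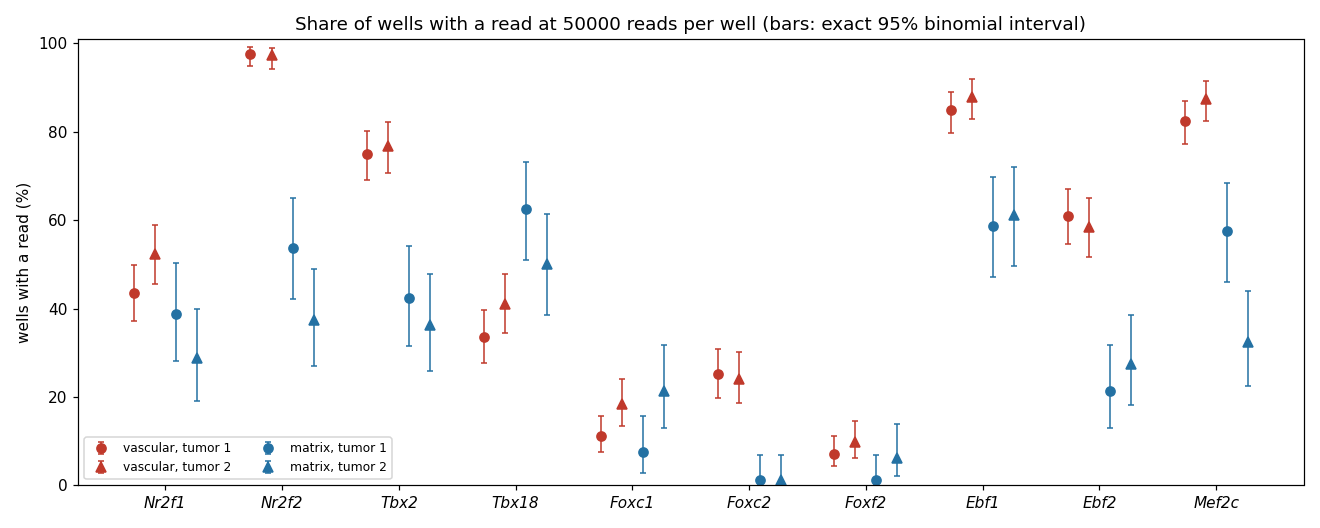
Share of wells with at least 1 read of each gene after thinning to 50000 reads per well, in percent, for vascular (red) and matrix (blue) cells of tumor 1 (circles) and tumor 2 (triangles), with exact 95% binomial intervals. The intervals of the classes are apart in both tumors for Nr2f2, Tbx2, Foxc2, Ebf1, Ebf2 and Mef2c.

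Single vascular cells carried several of the members at once. At 50000 reads the median vascular cell had a read of 5 of the 10 genes in tumor 1 and 6 in tumor 2, and the median matrix cell of 3 in each. At least 5 members were read in 68.1% and 76.8% of thinned vascular cells and in 25.0% and 18.8% of thinned matrix cells. Over the 499 vascular cells the correlation of log2(RPKM + 1) between 2 members had a median of 0.03 over 45 pairs and was highest for Tbx2 and Mef2c, at 0.20. In matrix cells the median was 0.06 and the highest value was 0.33, for Nr2f1 and Tbx2. Cells share library and depth, and such weak values in sparse counts are a description only.

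**Figure D4:**
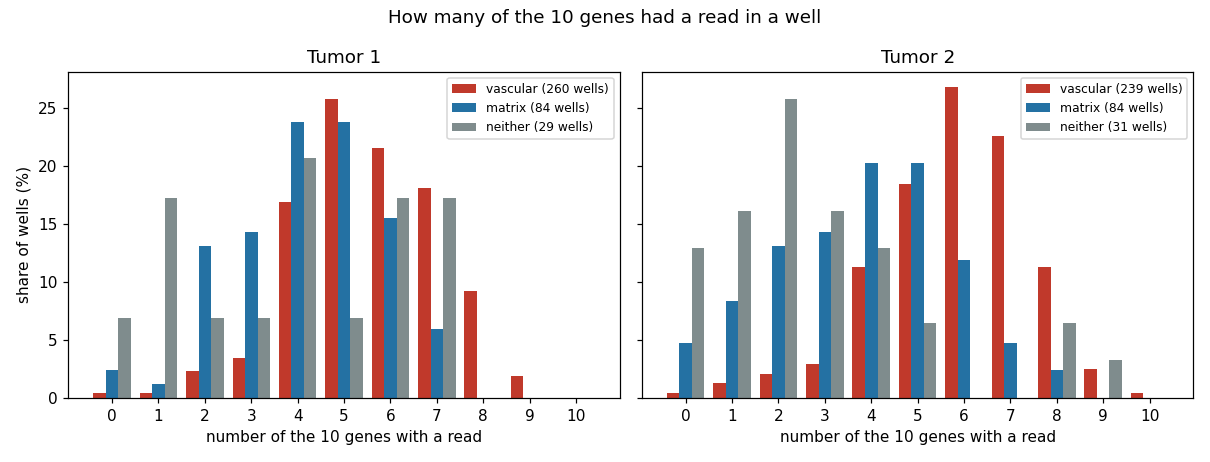
Share of wells, in percent, by how many of the 10 genes had at least 1 read, before thinning, for vascular (red), matrix (blue) and remaining (grey) wells of each tumor. Vascular cells peak at 5 genes in tumor 1 and 6 in tumor 2.

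Over all 727 wells, the genes whose levels were most like those of a member were sought among 7898 genes with a read in at least 20% of wells. The classes were pooled here, so these values restate in part the difference between vascular and matrix cells. Likeness within a class was not taken. Nr2f2 was most like Rgs5 (r = 0.74), which chose the vascular cells, then Higd1b (0.71) and Abcc9 (0.70), a channel subunit of pericytes. Mef2c was most like Rgs5 (0.51), Notch3 (0.51) and Abcc9 (0.50), and Ebf2 like Abcc9 (0.41), Kcnj8 (0.40) and Rgs5 (0.40). Tbx2 was most like Gja4 (0.48), a gap junction gene, and Ebf1 like Itga1 (0.50), an integrin subunit. Nr2f1 was most like Cygb (0.31) and Pdgfrb (0.30). Tbx18 was most like F2r (0.32), the thrombin receptor, Emp1 (0.28) and Fn1 (0.27). None of its 3 genes is on the vascular marker list, and the same holds for the 3 genes of Tbx2, of Ebf1 and of Nr2f1. Foxc1, Foxc2 and Foxf2 were read in under 20% of wells and were left out.

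The highest shares of wells with Foxc1 were those of wells with developmental markers, such as Sox9 and Sox10. Over all classes, 11 wells of tumor 1 and 24 of tumor 2 had at least 5 of 10 such markers at an RPKM of at least 1. Foxc1 had a read in 7 of these 11 wells, or 63.6% (exact 95% binomial interval 30.8 to 89.1), and in 18 of the 24, or 75.0% (53.3 to 90.2). In the wells with fewer markers its share was 11.9% (8.73 to 15.7) in tumor 1 and 21.2% (16.9 to 26.0) in tumor 2. With the classes together, the shares of the other 9 members were lower in the marked wells of both tumors than in the rest, but 23 of the 35 marked wells were of neither class while most of the rest were vascular. Tbx18, Foxc2, Foxf2 and Ebf2 had a read in 0 of the 11 marked wells of tumor 1, a limit of 27.3% by 3 counts and of 28.5% by the exact interval. Nr2f2, at 45.5% and 54.2%, and Tbx2, at 36.4% and 58.3%, were still read in many of these wells. Within a class and tumor, which gave 5 comparisons, the share of Foxc1 was higher in the marked wells in 5 of 5, as in matrix cells of tumor 2, where 4 of the 6 marked wells and 14 of the other 78 had a read. Mef2c was higher in 2 of 5, with 6 of 6 against 31 of 78 in matrix cells of tumor 2 and 40.0% against 25.0% in wells of neither class there. Tbx2 was higher in 1 of 5, with 11 of 15 against 4 of 16 in wells of neither class of tumor 2, and Nr2f2 and Foxc2 were each higher in 1 of 5. Marker genes of other cell types were also high in wells of neither class. The 5 Schwann markers, of which Sox10 is also a developmental marker, summed to 642 and 543 CPM there, against 6.57 and 7.14 CPM in vascular and 15.3 and 31.1 CPM in matrix cells. The 8 epithelial markers, of which Csn2 had no read, summed to 961 and 157 CPM there, against 6.63 and 39.7 CPM in vascular and 34.3 and 29.3 CPM in matrix cells. Their part in the shares of Foxc1 was not tested. The level of 5 markers was set with results in view, the wells are few, and no test was made.

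**Figure D5:**
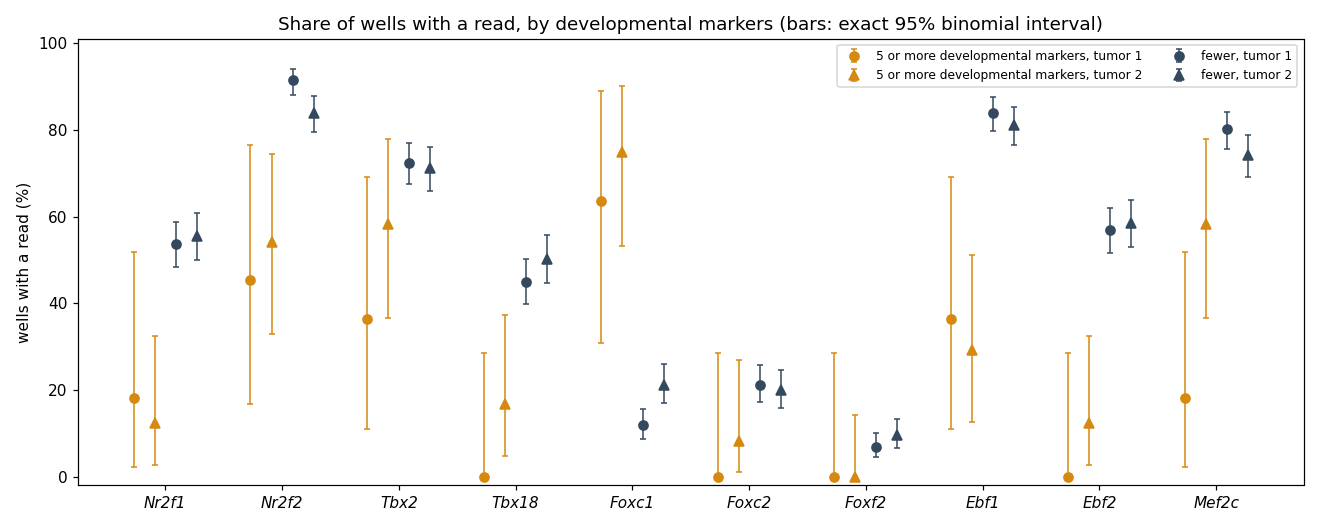
Share of wells with a read of each gene, in percent, in wells with at least 5 of 10 developmental markers (orange) and in wells with fewer (dark), for tumor 1 (circles) and tumor 2 (triangles), with exact 95% binomial intervals. With the classes together, Foxc1 is the only gene with a higher share in the marked wells of both tumors.

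Cycling vascular cells, with at least 5 of 10 mitotic markers, were compared with other vascular cells, 23 against 237 in tumor 1 and 18 against 221 in tumor 2. Of the 10 members 0 changed by edgeR, where 1.49% of 11219 genes were higher and 0.0802% lower in cycling cells. At an unadjusted p of 0.05 edgeR gave 0 members and DESeq2 1, and DESeq2 called 0. Foxf2 stood at 15.6 and 55.0 CPM in cycling cells against 12.5 and 11.3 CPM in the others (log2 fold change 1.62 ± 0.71, adjusted p = 0.375, edgeR). Ebf2 stood at 59.0 and 158 CPM against 192 and 205 CPM (-0.82 ± 0.48, adjusted p = 0.503). Nr2f2 had a read in all cycling cells of both tumors.

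Beside the 6.85% of all genes that were higher in vascular cells and the 9.89% higher in matrix cells, the other lists were counted. Of 22 paralogues of the members 12 were tested, 4 of them were higher in vascular cells, 2 in matrix cells and 6 were called in neither direction, with a median log2 fold change of 0.46. Tbx20, a T-box factor of the heart, had 3855 reads in vascular cells and 0 in matrix cells, at least 544-fold higher against a floor of 3 counts over the class. Foxl1, with 469 reads against 0, was at least 66.1-fold higher in vascular cells. Foxs1 (log2 fold change 1.30) and Mef2a (0.81) were also higher there. Tbx15 (-1.44) and Foxp1 (-0.71) were higher in matrix cells.

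Of 19 tested regulators of mural genes outside the members, 4 were higher in vascular cells, 2 in matrix cells and 13 in neither, with a median of 0.04. Myocd, the coactivator of smooth muscle genes, had 1290 reads in vascular cells and 2 in matrix cells, a ratio of 273 with a counting interval from 75.4 to 2256. Hey2 (log2 fold change 4.65) and Heyl (0.97), targets of Notch, and Epas1 (3.69), the hypoxia factor HIF-2α, were higher in vascular cells as well. Prdm6 had 694 reads in matrix cells and 0 in vascular cells, at least 547-fold higher in matrix cells, and Klf2 (-2.05) was also higher there. Of 18 tested fibroblast regulators 8 were higher in matrix cells, led by Prrx2 (-5.34), Klf4 (-4.72), Osr1 (-4.22) and Meox1 (-4.04), and 2 in vascular cells, Meox2 (2.77) and Prrx1 (0.87). Of 19 genes for mural surface, channel and contractile proteins 15 were higher in vascular cells and 0 in matrix cells, with a median of 4.07. The largest were Gja4 (9.44), Higd1b (8.73), Abcc9 (8.21) and Vtn (7.79), and several of these genes are vascular markers. Of 10 genes of the dissociation response 1, Ier2 (-0.85), was higher in matrix cells and 0 in vascular cells, a share near that of all genes.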

How the data were processed

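Reads of 43 bases were aligned by the authors to mm10 with STAR and counted on RefSeq genes. The deposited counts are whole reads per gene. The authors also deposited RPKM values, scaled to gene length and depth. No molecular identifiers were used, so intervals cover counting error only, and whether counting used strand is not given in the sources used here. All columns were matched to a tumor by name, and 0 were left unused. Wells with at least 10000 endogenous reads entered, at 10281 to 1190516 reads per vascular cell and 10476 to 539238 per matrix cell.

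Counts were summed per tumor and class and tested with edgeR 4.0.16 (TMM, glmQLFit, glmQLFTest, no block, Benjamini-Hochberg adjusted p of 0.05, mean RPKM of a gene not under 1), after tests on simulated data. DESeq2 1.42.0 and limma 3.58.1 (log2 of RPKM plus 1 or 0.1) were alternatives. Both libraries of a tumor are from 1 animal and so are paired. Their deviations from the class means correlated by 0.152, and by 0.0912 in the cycling comparison. The tumor as a block was an alternative. All p-values rest on 2 tumors.

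All 10 members are named. Of other lists, genes past the threshold are named, up to 4 in each direction by fold change. Genes most like a member are the 3 with the highest Pearson r. Members and lists were chosen with earlier results of these data known. Coordinates and start windows come from RefSeq on GRCm38, the assembly of mm10.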

Additional observations from a re-analysis of the deposited data

Results flagged for a closer look

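Reads of the members were also found in the 41 wells under 10000 reads, which entered no comparison. These wells had a median of 999 endogenous reads. Nr2f2 had a read in 7 of them, Mef2c in 6, Ebf1 in 5 and Tbx2 in 3, each with more than 3 reads in all. In total 46 reads of members were found in 17 of the wells.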

How the results depend on the processing

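Of the 10 members, 7 were higher in vascular cells, and this number moved to 4 with 6 libraries and to 1, Nr2f2, at an adjusted p of 0.001, and was 6 to 8 in the other alternatives with a test. Members higher in matrix cells went from 0 to 1, Tbx18, with ERCC totals as library size and in both limma fits. With the tumor as a replicate block, 6 members were higher in vascular cells, 0 in matrix cells and 0 changed in cycling cells. Nr2f1 was the one call lost under the block. The 7 called members kept their direction in all alternatives. ERCC totals moved the median of all genes by -0.69 on the log2 scale, and the limma fits by -0.22 and -0.47. With limma, Nr2f2 went from 3.30 to 4.16 and 5.44, and Foxc2 from 4.64 to 1.18 and 2.00. Over all genes, 6 libraries called 289 higher and 580 lower in vascular cells, ERCC totals 532 and 3658, and limma 937 and 2662 (pseudocount 1) or 846 and 3225 (0.1), DESeq2 1281 and 1663, and an adjusted p of 0.001 left 67 and 162, beside 794 and 1146. In cycling cells DESeq2 called 582 and 340 genes higher and lower, beside 167 and 9. Without 1 of the 2 tumors no test is left. Single tumors gave log2 ratios of 0.74 and 1.10 for Nr2f1, 3.13 and 3.49 for Nr2f2, and 4.13 and 5.48 for Foxc2. For Foxc1 they were 1.03 and -1.15, and for Foxf2 6.93 and 2.49. The cause of these shifts was not tested.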
